A study of Cervus nippon with 12 samples.

Results

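Antler chondrocytes (CC) were set against antler cells that had gone through 14 days of chondrogenic induction (CP_14), to describe which miRNAs still separated the induced cells from chondrocytes. The members were chosen by their labels. All 3 CC libraries and all 3 CP_14 libraries were used, 6 of the 12 libraries of the series, and all 545 listed miRNA names were followed, 475 with cattle names and 70 predicted from the reads and named novel_ with a number. The cells came from sika deer (Cervus nippon), whose antlers regrow every year, and the labels give the genotype as wild type. The CP_14 cells started as reserve mesenchyme cells (RMCs), the stem cells at the growing tip of the antler. They were kept in DMEM with fetal bovine serum. Induction took place in tubes, with fresh chondrogenic medium every 2 days. CC were cells grown from antler cartilage, for which no induction is given. Both tissues came from antler tips of male deer 3 years old, but the labels tie no library to an animal or a culture, so the p-values below measure the spread between these libraries. Source tissue, culture and sequencing depth all differed between CC and CP_14 and cannot be told apart.

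MiRNAs are short RNAs cut from hairpin precursors, and either arm of the hairpin, named 5p and 3p, can be loaded into Argonaute to repress mRNAs. In cartilage the best known are miR-140, made from an intron of WWP2 under the control of SOX9, and miR-455, made from an intron of the cartilage collagen gene COL27A1. Loss of miR-140 in mice shortens the skeleton and brings on early cartilage wear.

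The CC libraries held 10256572, 9714090 and 9970138 reads and the CP_14 libraries 2791559, 3024668 and 3864900. One read was therefore worth 0.0975 to 0.103 RPM (reads per 1000000 reads) in CC and 0.259 to 0.358 RPM in CP_14. A count of 0 allowed up to 0.309 RPM in CC and up to 1.07 RPM in CP_14, taken as 3 reads in each library and covering counting error only. CP_14 replicate 3 stood apart from the other CP_14 libraries. The reads of CP_14 replicates 1 and 2 differed by a chi-square of 4.92 per degree of freedom, against 252 and 213 for the pairs with replicate 3 and 42.6 to 216 among the CC libraries. Results that changed without this library are given with their value.

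The label was checked with the cartilage miRNAs, the protein markers of chondrocytes being out of reach of small RNA sequencing. On the scale normalized with trimmed means of M values (TMM), miR-140 stood at 13346, 12634 and 13314 RPM in CC and at 7444, 7639 and 7745 RPM in CP_14. The 5p arm of miR-455 stood at 438, 405 and 405 RPM in CC and at 165, 174 and 192 RPM in CP_14. Both were detected in all 6 libraries and were higher in every CC library than in every CP_14 library. Another cartilage miRNA that had been looked for, miR-675, was not among the listed miRNAs.

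A total of 276 miRNAs had enough reads to be tested, and 206 of them differed between CC and CP_14 (74.6%) by a two-sided limma test at an adjusted p of 0.05. Of these, 104 were higher in CC (37.7%) and 102 were lower (37%). The groups did not overlap for 217 of the 276 (78.6%). The median log2 fold change of CC against CP_14 was 0.89 among the miRNAs called higher and -1.11 among those called lower, whereas the median within-group SD of the log2 values was 0.13 in CC and 0.18 in CP_14. At least 2-fold, 42 miRNAs were higher and 56 lower, 98 in all (35.5%), and at least 4-fold 8 were higher and 12 lower. At least 8-fold, 0 were higher and 6 lower, and 5 of these were lower by at least 16-fold. Among the 70 miRNAs not called, 56 had a 95% interval that lay within 2-fold in either direction. At an unadjusted p of 0.05, 210 miRNAs passed.

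The number of calls changed little with the scaling of the libraries, but their direction did. The median log2 fold change of all tested miRNAs was 0.09 with TMM factors, 0.08 with relative log expression factors, 0.25 when upper-quartile factors were used, -0.54 when libraries were scaled by size alone (library size only) and 0.43 when the totals left out miR-21-5p. The split into higher and lower, 104 and 102 with TMM, became 120 and 86 under upper-quartile factors, 40 and 163 when only size was used, and 138 and 70 without miR-21-5p in the totals. Under all 5 scalings, 40 miRNAs were called higher (14.5%) and 70 lower (25.4%). In these bulk libraries fewer cells holding a miRNA and less of it per cell cannot be told apart.

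**Figure D1:**
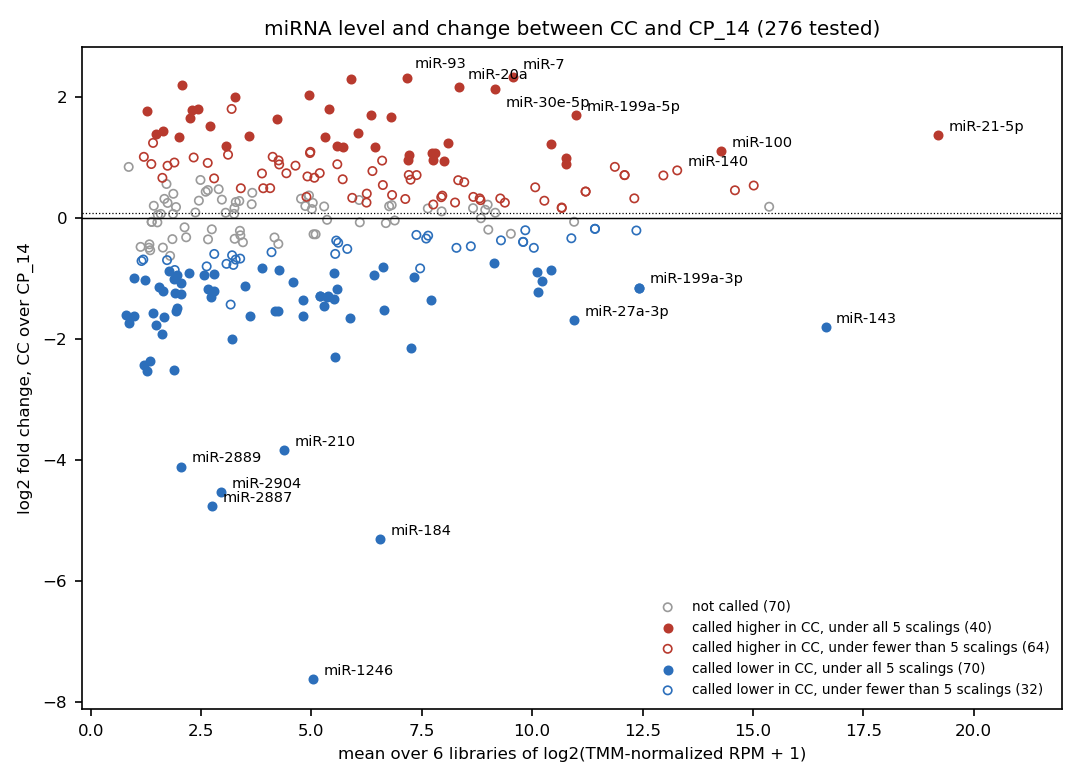
Log2 fold change of CC against CP_14 (vertical axis) by mean level on the log2 scale (horizontal axis) for the 276 tested miRNAs, each point being 1 miRNA, where red and blue points were called higher or lower at an adjusted p of 0.05 by limma, filled where the call held under all 5 scalings, and the dotted line is the median of 0.09. The 104 higher miRNAs all lie under 8-fold, whereas 6 of the 102 lower miRNAs lie at or beyond it.

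MiR-140 and miR-455-5p, which mark cartilage, were both above CP_14 in CC, but by different amounts. MiR-455-5p had a log2 fold change of 1.23 (standard error, SE, 0.0774, limma adjusted p = 6.97e-07) and was called under all 5 scalings. MiR-140 had a log2 fold change of 0.78 (SE 0.0533, limma adjusted p = 1.23e-06), and with library size only this was 0.07 and not called. The 3p arm of miR-455 had 330, 280 and 345 reads in CC and 116, 157 and 170 in CP_14. Its groups overlapped after normalization, and its log2 fold change was 0.19 (95% interval -0.10 to 0.48, limma adjusted p = 0.199). It was called lower with library size only (-0.51) and higher without miR-21-5p in the totals (0.53). Thus 2 of the 3 listed cartilage names were higher, 1 of them under all 5 scalings, and 1 was not called, whereas 37.7% of all tested miRNAs were higher and 74.6% called. Their median was 0.78 against 0.09 over all tested miRNAs. Summed, the 3 names reached 13827, 13076 and 13762 RPM in CC and 7640, 7852 and 7974 RPM in CP_14.

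The same 5 miRNAs were the most abundant in both groups. With TMM, miR-21-5p, miR-148a and miR-27b were called higher in CC, miR-143 was called lower and let-7i was not called. MiR-21-5p, a miRNA of many growing and cultured cells, took 75.2% ± 2.04 (SD, n = 3) of the reads in CC and 48.2% ± 4.95 in CP_14. MiR-143, a miRNA of smooth muscle and fibroblasts, took 4.33% ± 0.757 (SD, n = 3) in CC and 24.8% ± 3.98 in CP_14. The 10 most abundant names of each library held 93.4% ± 0.352 of the reads in CC and 90.0% ± 0.46 in CP_14 (SD, n = 3).

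MiR-143 was the most abundant miRNA that was lower in CC. It stood at 48010, 55999 and 61492 RPM in CC against 208817, 201958 and 168104 RPM in CP_14, a mean 3.5-fold lower (log2 fold change -1.81, SE 0.113, limma adjusted p = 6.86e-07). All CC libraries lay far below all CP_14 libraries, and it was called lower under all 5 scalings. Its partner miR-145 is made from the same primary transcript in mammals. It stood at 629, 535 and 489 RPM in CC and 418, 431 and 581 RPM in CP_14, with a log2 fold change of 0.22 (95% interval -0.08 to 0.52). The groups overlapped, with CP_14 replicate 3 among the CC values, and without that library miR-145 was called at 0.35 (limma adjusted p = 0.017), whereas it was called lower with library size only (-0.50) and higher without miR-21-5p in the totals (0.56).

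The other abundant miRNAs differed less. MiR-148a, which represses the DNA methyltransferase DNMT1, had a log2 fold change of 0.53 (limma adjusted p = 2.77e-05). MiR-27b had one of 0.45 (limma adjusted p = 0.00123). With library size only both lost the call and changed sign, to -0.18 and -0.26. Let-7i was not called (0.18, 95% interval 0.01 to 0.36, limma adjusted p = 0.057), it was called without CP_14 replicate 3 (0.24, limma adjusted p = 0.00579), and its call varied with the scaling. It was called lower with library size only (-0.53), and higher with upper-quartile factors (0.36) and without miR-21-5p in the totals (0.53).

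Among called miRNAs without overlap that averaged 50 reads or more in either group, the largest rises in CC were those of miR-7, miR-93, miR-19b, novel_38, miR-20a, miR-30e-5p, miR-6119-5p and miR-362-5p. All 8 lay between 2.00 and 2.32 on the log2 scale, and all were called higher under all 5 scalings. MiR-7, known as a repressor of the EGF receptor, had 15453, 12815 and 11413 reads in CC and 878, 1088 and 2717 in CP_14. In TMM-normalized RPM this was 2025, 1706 and 1384 in CC and 239, 272 and 583 in CP_14. Every CC library was above every CP_14 library, with CP_14 replicate 3 the highest of its group. The log2 fold change was 2.32 (SE 0.287, limma adjusted p = 6.02e-05).

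MiR-93, miR-20a and miR-19b belong to the miR-17-92 family and its paralogous clusters, which MYC induces and which favour cell cycle entry. MiR-93 stood at 348, 306 and 296 RPM in CC and at 55.2, 62.0 and 73.2 RPM in CP_14. MiR-20a stood at 753, 692 and 630 RPM in CC and at 129, 134 and 208 RPM in CP_14. MiR-19b had 1159, 951 and 952 reads in CC and 55, 97 and 221 in CP_14. None of the 3 overlapped between the groups, and their lowest CC value was always more than 2-fold above the highest CP_14 value. The log2 fold changes were 2.31 for miR-93 (SE 0.114, limma adjusted p = 2.55e-07), 2.16 for miR-20a (SE 0.162, limma adjusted p = 2.29e-06) and 2.29 for miR-19b (SE 0.327, limma adjusted p = 0.000167).

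MiR-30e-5p stood at 1291, 1243 and 1067 RPM in CC and at 221, 243 and 373 RPM in CP_14, with no overlap. Its log2 fold change was 2.13 (SE 0.17, limma adjusted p = 3.41e-06). MiR-6119-5p and miR-362-5p were less abundant, with 436 to 535 and 115 to 190 reads in CC and 42 to 104 and 12 to 22 in CP_14. The predicted novel_38 rested on few reads in CP_14, namely 1, 2 and 14 against 85, 48 and 59 in CC, so that its value of 2.19 depends on the added 1 RPM. For all 8 of these miRNAs the highest CP_14 value was that of replicate 3. Without that library the values of all 8 were larger, for example 2.70 for miR-7 and 2.69 for miR-19b.

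Under the same limits, the largest falls in CC were those of miR-1246, miR-184, miR-2887, miR-2904, miR-2889, miR-210, miR-147 and miR-148d. All 8 were called lower under all 5 scalings. They had 0 to 711 reads in the CC libraries and 56 to 2713 in the CP_14 libraries, although the CC libraries were deeper. MiR-184, best known from the cornea and lens, had 97, 112 and 117 reads in CC and 2226, 2332 and 2713 in CP_14. In TMM-normalized RPM it stood at 12.7, 14.9 and 14.2 in CC and at 605, 583 and 582 in CP_14. The libraries of each group lay close together and the groups were 39.6-fold apart (log2 fold change -5.31, SE 0.0897, limma adjusted p = 7.09e-11).

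MiR-1246 had 8, 14 and 10 reads in CC and 1836, 1943 and 1860 in CP_14. Its TMM-normalized levels were 1.05, 1.86 and 1.21 RPM in CC and 499, 486 and 399 RPM in CP_14. It was the largest difference of all tested miRNAs (log2 fold change -7.61, SE 0.161, limma adjusted p = 2.9e-10). In human cells small RNA reads with this name also come from fragments of the U2 small nuclear RNA, and whether such fragments were counted here was not tested. MiR-210, the miRNA that hypoxia induces most regularly through HIF-1, had 37, 24 and 48 reads in CC and 307, 299 and 350 in CP_14. It stood at 4.85, 3.20 and 5.82 RPM in CC against 83.4, 74.8 and 75.1 RPM in CP_14, 14.3-fold apart on the tested scale (log2 fold change -3.84, SE 0.191, limma adjusted p = 2.55e-07). No oxygen level is given in the labels.

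MiR-2887, miR-2904 and miR-2889, known from cattle, were almost confined to CP_14 among these 6 libraries. MiR-2887 had 3, 1 and 3 reads in CC and 129, 149 and 141 in CP_14. MiR-2904 had 10, 1 and 5 reads in CC, or 0.133 to 1.31 RPM, and 30.7 to 41.3 RPM in CP_14. MiR-2889 had 0 reads in all CC libraries and 88, 59 and 56 in CP_14, so that it was at least 43.8-fold lower in CC when a limit of 3 reads is set in each CC library. The adjusted p of these 3 was between 8.77e-08 and 8.29e-07 by limma. MiR-147, a miRNA of the inflammatory response of macrophages, had 137, 147 and 190 reads in CC and 407, 428 and 420 in CP_14 (log2 fold change -2.29, SE 0.133, limma adjusted p = 4.34e-07). MiR-148d had 440, 539 and 711 reads in CC and 1264, 1402 and 1257 in CP_14 (log2 fold change -2.15, SE 0.151, limma adjusted p = 1.52e-06). Thus even the raw reads of these miRNAs were fewer in each of the deeper CC libraries.

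**Figure D2:**
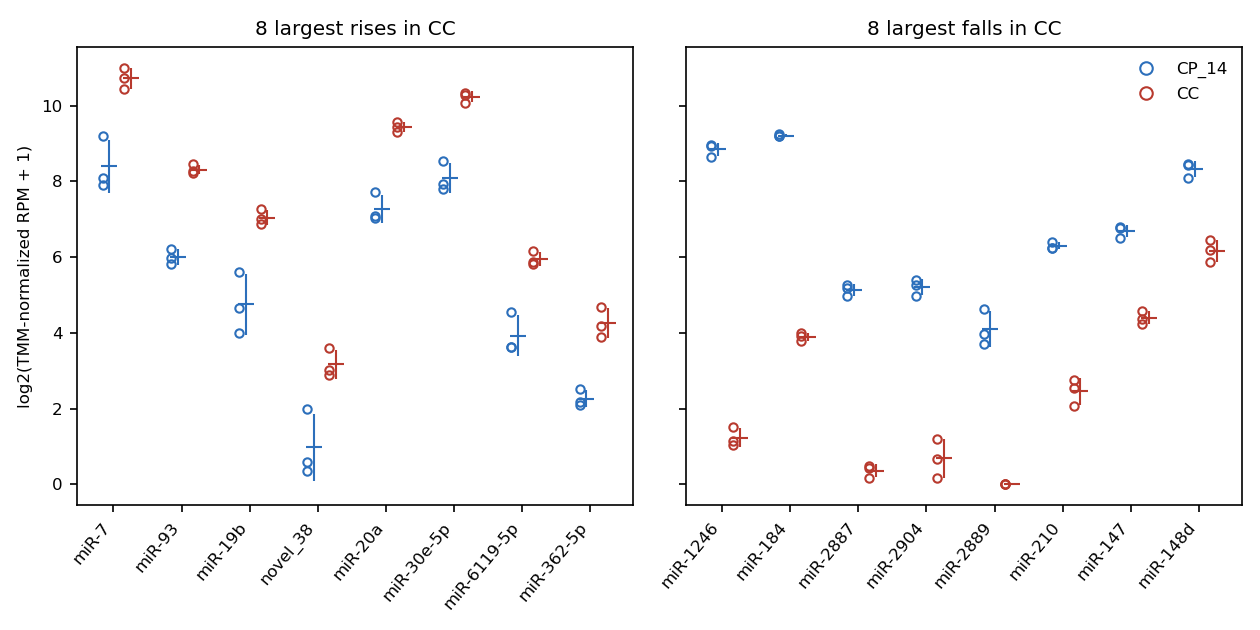
TMM-normalized level in each library for the 8 largest rises and the 8 largest falls in CC, as log2(RPM + 1), with each point a library of CC (red) or CP_14 (blue) and each cross the mean and SD. No CC point reaches a CP_14 point for any of these miRNAs, and among the rises the highest CP_14 point is that of replicate 3 for all 8.

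By family, the growth-associated miR-17-92 names had the highest median. Of its 15 listed names 12 had enough reads, and 10 were higher, 1 was lower and 1 was not called, with a median of 1.48 against 0.09 over all tested miRNAs and 74.6% called. Under all 5 scalings 7 were higher and 1 was lower, while miR-25 and miR-92a were called lower with library size only. The most abundant, miR-92a, had 5289, 5254 and 5645 reads in CC and 2358, 2101 and 2359 in CP_14 and was higher by only 0.32 (limma adjusted p = 0.00842), which became -0.39 with library size only. MiR-363 was the lower one. It had 28, 21 and 28 reads in CC and 21, 40 and 30 in CP_14 (log2 fold change -0.94, limma adjusted p = 0.00566). MiR-363 is also among the names picked out further on by their reads in CP_0 replicate 3, a library of uninduced RMCs. In the fit on all 12 libraries miR-92a and miR-363 both lost the call.

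The let-7 family represses LIN28 and HMGA2 and rises as cells mature. Its 10 listed names include let-7a-3p, the opposite arm of let-7a-5p. Of the 10, 9 were higher in CC and 0 lower, against 37.7% higher over all tested miRNAs, with a median of 0.57. With library size only, however, let-7a-5p, let-7b, let-7d, let-7e and let-7i were called lower. Only miR-98 (1.04, limma adjusted p = 5.81e-06) and let-7c (0.94, limma adjusted p = 6.06e-06) were higher under all 5 scalings. Let-7f stood at 0.70 with TMM and at -0.01 with library size only. The miR-99/miR-100/miR-125 names are clustered with let-7 genes in the genome. All 5 with enough reads were higher (median 0.89), of which 3 under all 5 scalings, while miR-99b was called lower with library size only. MiR-100, which represses MTOR, stood at 28593, 28012 and 30250 RPM in CC and at 13379, 13512 and 13583 RPM in CP_14. The groups were well apart, with a log2 fold change of 1.10 (SE 0.0564, limma adjusted p = 2.82e-07). MiR-99a-5p (1.99-fold higher) and miR-125b (1.86-fold higher) changed alike, each with an adjusted p of 4.04e-07 by limma.

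Other families were split between their members, and their shares of calls are to be set beside 74.6% called, 37.7% higher and 37% lower over all tested miRNAs. Of 6 miR-30 names 4 were higher, 1 was lower and 1 was not called (median 0.72), with 2 higher and 1 lower under all 5 scalings, while with library size only miR-30a-5p stood at -0.21 and miR-30f was called lower. MiR-30d had 17468, 16021 and 15800 reads in CC and 2932, 3342 and 5214 in CP_14 (log2 fold change 1.22, limma adjusted p = 1.4e-05). MiR-30b-5p went the opposite way (-0.94, limma adjusted p = 2e-05). Of 3 miR-26 names, miR-26a and miR-26c, which share their reads within 1%, were higher at 0.71 with TMM but stood at -0.01 with library size only, whereas miR-26b was lower at -0.74 (limma adjusted p = 4.32e-06) under all 5 scalings. In the miR-148/miR-152 family, with 5 names, miR-148a was the 1 higher and the other 4 were lower, of which only miR-148d under all 5 scalings, and miR-152 shared its reads with miR-148c.

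The miR-221/miR-222 pair, which represses the cell cycle inhibitor CDKN1B, was called for 1 of its members with TMM and for both with library size only. MiR-221 stood at 736, 739 and 731 RPM in CC and at 1743, 1650 and 1773 RPM in CP_14 (log2 fold change -1.23, SE 0.054, limma adjusted p = 1.24e-07). The libraries of each group almost coincided and it was lower under all 5 scalings. MiR-222 had a log2 fold change of -0.20 (limma adjusted p = 0.054), overlapped between the groups, and was called without CC replicate 1 (-0.28, limma adjusted p = 0.00978). With library size only it was called lower at -0.91, and with totals that leave out miR-21-5p it stood at 0.15. Of 4 miR-181 names 2 were lower and 2 not called (median -0.74), against 37% lower over all tested miRNAs. The lower ones were miR-181a (-1.05, limma adjusted p = 1.12e-06) and miR-181b (-1.36, limma adjusted p = 1.98e-06), lower under all 5 scalings.

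The miR-29 family represses collagens and other matrix genes. All 4 of its 5 names that had enough reads were lower in CC (median -0.49), against 37% of all tested miRNAs. One of them, miR-29d-5p (-0.60), is the opposite arm of miR-29d-3p, which had too few reads. Only miR-29c (-1.22, limma adjusted p = 0.00107) was so under all 5 scalings. MiR-29a went from -0.21 with TMM to 0.14 with totals that leave out miR-21-5p, but no scaling called it higher. Of 8 names of the miR-15/miR-16 family, which represses BCL2 and cyclins, 2 were higher, 2 lower and 4 not called (median 0.20), while 74.6% of all tested miRNAs were called. Both lower ones and neither higher one held under all 5 scalings. The higher ones were miR-497 (1.01, limma adjusted p = 0.000181) and miR-195 (0.74, limma adjusted p = 0.0015), neighbours in the genome, which lost the call with library size only. MiR-15b and miR-16b, not called with TMM, were called lower with library size only and higher with upper-quartile factors. MiR-16a was lower at -1.53 (limma adjusted p = 0.000121). The other lower name was miR-424-3p (-1.30), the opposite arm of miR-424-5p, which was not called. Of 6 tested names from the miR-424/miR-503/miR-450/miR-542 cluster, 1 was higher, 3 were lower and 2 not called (median -0.36), the higher one, miR-450b, being called lower with library size only. Of the 3 lower names 2 held under all 5 scalings, and miR-503-5p stood at -1.54 (limma adjusted p = 2.16e-05).

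The imprinted DLK1-DIO3 region holds a large group of miRNA genes expressed from the maternal chromosome. Of its 45 listed names 41 had a read and 12 had enough reads, and of these 1 was higher, 7 were lower and 4 were not called (median -0.65), with 5 lower under all 5 scalings. Over all tested miRNAs 74.6% were called and 37% were lower. Summed over all 45, they reached 103 ± 6.25 RPM in CC (SD, n = 3) and 208 ± 10.4 RPM in CP_14. MiR-127 was lower at -1.63 (limma adjusted p = 4.59e-06), miR-379 at -1.28 (limma adjusted p = 1.73e-05) and miR-411a, the most abundant of them in CC, at -0.60 (limma adjusted p = 0.000933).

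The remaining lists were small, and their calls stand against 74.6% called over all tested miRNAs. The single miR-101 name was higher with TMM but lower with library size only. Of 2 tested miR-10/miR-196 names 1 was higher and 1 lower, neither under all 5 scalings. Of 3 tested miR-34/miR-449 names 1 was higher and 2 lower, of which only miR-34c under all 5 scalings, and miR-34c lost the call in the fit on all 12 libraries. Of 3 tested names of inflammation 1 was higher with TMM but not with library size only, 1, miR-147, was lower and 1 was not called. Both miR-1246 and miR-1248 were lower under all 5 scalings. Both arms of miR-21 were higher, the 5p arm under all 5 scalings.

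**Figure D3:**
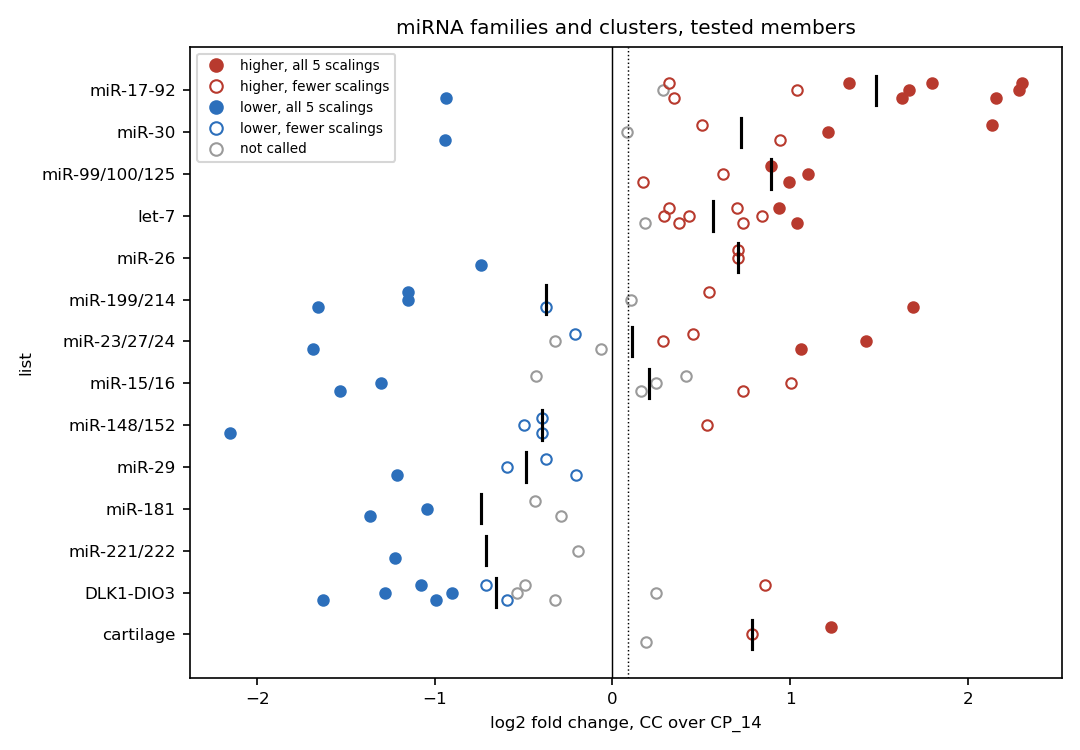
Log2 fold change of CC against CP_14 with TMM factors for each tested member of the miRNA families, one point per member, coloured where called by limma and filled where the call held under all 5 scalings, with a bar at the median of each family. Most miR-17-92 and let-7 points lie above 0 and all miR-29 and miR-181 points below it. With library size only 5 let-7 names were called lower, and without miR-21-5p in the totals miR-29a changed sign but was not called higher.

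The miR-199/miR-214 genes lie on the opposite strand of an intron of a dynamin gene and are active in skeletal mesenchyme. Of 7 names 2 were higher, 4 lower and 1 not called (median -0.37), with 1 higher and 3 lower under all 5 scalings, where 74.6% of all tested miRNAs were called and 37% lower. The arms of miR-199a went in opposite directions. Its 5p arm had 29975, 26784 and 28548 reads in CC and 3738, 4297 and 6149 in CP_14. Its 3p arm had 26528, 27121 and 32242 reads in CC and 31335, 32621 and 36011 in CP_14. The arms were thus near equal in the CC libraries, with 5p ahead in CC replicate 1 only, and all CP_14 libraries had a large excess of 3p. The log2 fold change was 1.69 for the 5p arm (SE 0.0964, limma adjusted p = 4.04e-07) and -1.15 for the 3p arm (SE 0.0639, limma adjusted p = 4.04e-07). MiR-3604 shared the reads of the 3p arm within 1%.

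Other members of this group followed no single direction. MiR-199b was lower at -0.37 (limma adjusted p = 0.00914), but only under 3 of the 5 scalings, and miR-199c at -1.66 (limma adjusted p = 3.02e-06). MiR-3120, which is transcribed across from miR-214, was higher at 0.54 with TMM (limma adjusted p = 0.000363) but stood at -0.17 with library size only. MiR-214 was not called (0.11, 95% interval -0.05 to 0.26). It was called lower with library size only (-0.60), and higher with upper-quartile factors (0.28) and without miR-21-5p in the totals (0.45).

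The ratio of the arms of a hairpin is taken within a library and needs no scaling between libraries, apart from the added 1 RPM, which shrinks changes of low arms. It was tested for the 19 hairpins whose arms each averaged 10 reads or more. It changed for 12 of the 19 (63.2%), with 8 leaning to 5p in CC and 4 to 3p and adjusted p from 5.55e-28 to 0.00379 by limma. This test, with an intensity trend, gave all hairpins of a given level the same spread, so it was also run without the trend, a choice made after the data were seen. The same 12 were called there, with adjusted p from 1.47e-05 to 0.0455 by limma, and miR-331 was called in addition (log2 change of the ratio -1.08, adjusted p = 0.00638 in limma without trend).

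For miR-199a the 5p arm held 53.1%, 49.7% and 47.0% of the reads listed under the 5p and 3p names in CC and 10.7%, 11.6% and 14.6% in CP_14. The 3p reads were also listed under miR-3604, and whether all of them come from the miR-199a hairpin was not tested. For miR-27a, whose 3p arm represses PPARG, the 5p arm held 25.6%, 21.4% and 20.9% in CC and 3.83%, 3.91% and 4.72% in CP_14. These were the largest changes, 2.84 for miR-199a and 2.75 for miR-27a on the log2 scale, each with an adjusted p of 1.47e-05 by limma without trend. As with miR-199a, the arms of miR-27a moved in opposite directions. The 5p arm had 2453, 2340 and 2768 reads in CC and 563, 621 and 714 in CP_14 (log2 fold change 1.06, limma adjusted p = 6.86e-07). The 3p arm had 7134, 8581 and 10507 reads in CC and 14123, 15281 and 14424 in CP_14 (-1.69, limma adjusted p = 1.54e-06). Both arms kept their direction and call under all 5 scalings. Among the 8 names of the miR-23/miR-27/miR-24 clusters, 4 were higher, 2 lower and 2 not called (median 0.11), with 2 higher and 1 lower under all 5 scalings. Over all tested miRNAs 74.6% were called. Among those not called lower with TMM, miR-23a, miR-23b-3p and miR-24 were called lower with library size only, and miR-23a was called higher without miR-21-5p in the totals.

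The other large changes towards 5p were those of miR-6119 (1.68) and miR-23b (1.40). The 5p arm of miR-6119 held 94.0% to 96.9% in CC and 69.2% to 92.0% in CP_14, and its call was lost without CC replicate 1 (1.43). That of miR-23b was a minor arm, with 31, 23 and 44 reads in CC and 3, 5 and 3 in CP_14. The 5p share of miR-455 was 91.0%, 91.6% and 90.6% in CC and 84.0%, 81.6% and 84.0% in CP_14 (log2 change 1.03, adjusted p = 0.000913 in limma without trend), so that the arms of this cartilage miRNA also differed in their change.

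Among the ratios called with the trend, the changes towards 3p were those of miR-7857 (-1.18), miR-423 (-1.06), miR-365 (-0.59) and let-7a (-0.45), while miR-331, called only without it, lay between the first 2. In miR-423 the major arm was exchanged. Its 5p arm held 40.6%, 44.2% and 45.6% of the reads in CC and 60.9%, 62.8% and 61.0% in CP_14 (adjusted p = 0.000913 in limma without trend). The 5p arm of miR-7857 held 67.8%, 79.8% and 79.5% in CC and 86.9%, 90.6% and 84.4% in CP_14. The arms of miR-21 were not called as a ratio (0.44, limma adjusted p = 0.108) except without CP_14 replicate 3 (0.63), and both arms rose in CC.

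**Figure D4:**
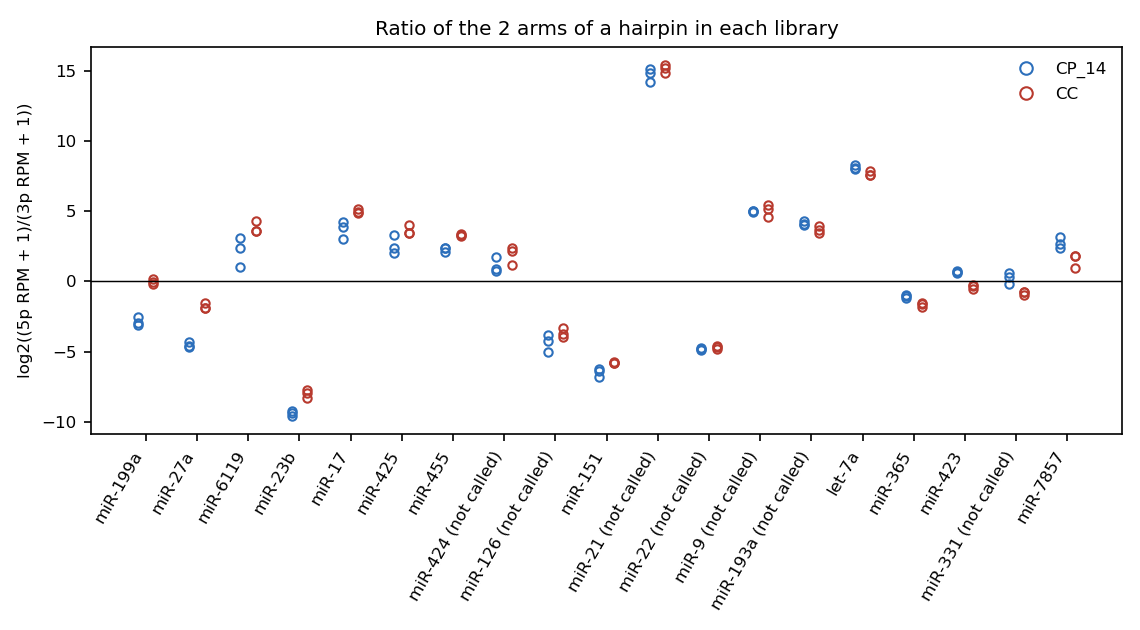
Log2 ratio of the 5p arm to the 3p arm in each library of CC and CP_14 for the tested hairpins, one point per library, with the hairpins that were not called marked so. The miR-199a and miR-27a points of CC and CP_14 are the farthest apart, and the miR-423 points lie below 0 in CC and above 0 in CP_14.

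In all, 515 of the 545 names had a read in these 6 libraries, 443 in CC and 470 in CP_14. Single CC libraries held 386, 381 and 393 names and CP_14 libraries 392, 403 and 415. With every library brought to the 2791559 reads of the smallest, 333 ± 4.21 names (SD, n = 3) would be expected in CC and 397 ± 4.13 in CP_14. These libraries are matched in total reads only, of which miR-21-5p took 75.2% in CC and 48.2% in CP_14. Matched instead at 1535706 reads other than miR-21-5p, a choice made after the data were seen, 366 ± 2.21 names (SD, n = 3) would be expected in CC and 399 ± 8.09 in CP_14. So more names were expected in the CP_14 libraries at matched depth, while as sequenced the groups overlapped.

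A total of 20 names had a read in every CP_14 library and in no CC library, and 6 had one in every CC library and in no CP_14 library. With at least 3 reads in each library of the group these numbers were 10 and 1. MiR-2889 led the first group. The predicted novel_303 had 18, 22 and 19 reads and novel_420 had 20, 23 and 12 in CP_14, so that they were at least 12.5-fold and at least 11.9-fold lower in CC. MiR-31 was chosen after its values were seen, with 7, 7 and 5 reads in CP_14 (at least 4.09-fold lower in CC). On the CC side the only one above the CP_14 limit was miR-138, also chosen after its values were seen, which had 17, 10 and 12 reads in CC (at least 2.27-fold higher). The other 5, namely miR-136, miR-20b, miR-2285c, miR-2314 and miR-592, had at most 6 reads in a CC library, below what a count of 0 allows in CP_14. The number on the CC side was 10 without CC replicate 1, 11 without CC replicate 3 and 10 without CP_14 replicate 3, and that on the CP_14 side was 30 without CP_14 replicate 1.

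The listed names of miRNAs that mark other cell types were lower in CC or not called, and none of them was called higher under any of the 5 scalings. Over all tested miRNAs 37% were lower and 74.6% called in either direction. Of 7 listed muscle names, 6 had a read and 5 were tested, and 4 were lower (median -0.51), of which only miR-133b under all 5 scalings. They summed to 968, 937 and 911 RPM in CC and to 1335, 1288 and 1399 RPM in CP_14. The most abundant was miR-1 (-0.50, limma adjusted p = 4.59e-05, but -0.15 and not called without miR-21-5p in the totals). The heart-specific miR-208b was at 0 in all 6 libraries and miR-208a at 0 in CC. MiR-206, specific to skeletal muscle, had 39, 32 and 34 reads in CC and 148, 37 and 31 in CP_14, so that its fall rested mostly on CP_14 replicate 1. Its log2 fold change was -1.43 (limma adjusted p = 0.0305) and -0.69 without that library, and it was not called without CC replicate 2 (-1.41) or CC replicate 3 (-1.39), nor when the totals lacked miR-21-5p, nor in the fit on all 12 libraries. MiR-133c was not on the list and was chosen after its values were seen. It went the other way, with 20, 20 and 19 reads in CC and 1, 4 and 8 in CP_14 (log2 fold change 0.89, SE 0.293, limma adjusted p = 0.0204), and was not called without CP_14 replicate 1 (0.58) or with library size only (0.48), nor by DESeq2.

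Of 7 blood names 5 were tested and 4 were lower (median -0.87), 3 of them under all 5 scalings but not in the fit on all 12 libraries, summing to 1973, 1898 and 1685 RPM in CC and to 3944, 3440 and 2910 RPM in CP_14. The most abundant was the red cell miRNA miR-486, whereas miR-144, which is cut from the same transcript as miR-451, had 2 reads in all. Of the 2 arms of the endothelial miR-126, the 3p arm was lower at -0.41 (limma adjusted p = 0.0187), but only under 3 of the 5 scalings, and the 5p arm was not called. The arms summed to 38.1, 46.1 and 46.6 RPM in CC and to 62.2, 63.3 and 47.7 RPM in CP_14. The call of miR-126-3p was lost without CP_14 replicate 1 (-0.36), CP_14 replicate 2 (-0.35) or CC replicate 1 (-0.33), and in the fit on all 12 libraries.

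Of 6 epithelial names 5 were tested and 3 were lower (median -0.69), of which only miR-200a under all 5 scalings, the sums being 20.8, 16.2 and 15.5 RPM in CC and 35.1, 32.8 and 29.4 RPM in CP_14. The most abundant was miR-200a, with 82, 77 and 76 reads in CC and 74, 80 and 76 in CP_14. Of 5 names of other organs 4 were tested and all 4 were lower under all 5 scalings (median -1.35), summing to 78.8, 82.1 and 84.0 RPM in CC and to 150, 155 and 168 RPM in CP_14. The neural miR-9-5p was the most abundant (-0.81), but lost the call in the fit on all 12 libraries, miR-122 of the liver had 55, 30 and 58 reads in CC and 86, 75 and 89 in CP_14, and miR-124a had a single read in each group. The part of other cell types in these results was not tested.

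Several of these names had nearly the same number of reads in all 6 libraries, whatever the depth. MiR-451 had 6619, 6293 and 6119 reads in CC and 6431, 6039 and 6109 in CP_14. MiR-486 had 8345, 7885 and 7706 reads in CC and 7992, 7615 and 7363 in CP_14. With equal reads in all 6 libraries a miRNA has a log2 fold change of -0.93 after normalization, since the CC libraries were deeper, and these stood at -0.89 and -0.87. A rule set after the data were seen, at least 50 reads and the highest at most 1.2 times the lowest, found 4 such names, these and miR-182 and miR-200a, and all 4 were called lower. In CP_0 replicate 3, a library of uninduced RMCs, miR-451 had 6933 reads, against at most 29 in the other 5 libraries of RMCs at days 0 and 7. A further rule set after the data were seen, at least 20 reads in CP_0 replicate 3 and at least 3 times as many as in each other CP_0 library, picked out 7 names, namely miR-451, miR-486, miR-34c, miR-182, miR-142-5p, miR-363 and miR-206, and all 7 were called lower in CC, against 37% over all tested miRNAs. All 7 lost the call in the fit on all 12 libraries, but the rule itself asks for a wide spread within CP_0, which that fit counts as error. Without them 96 of 269 tested miRNAs were higher and 99 lower. The origin of these reads was not tested.

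The levels in all 4 groups, normalized over the 12 libraries and given without a test, showed where the induced cells stood between uninduced RMCs (CP_0), RMCs after 7 days (CP_7) and chondrocytes. They rest on TMM factors alone, and the CP_7 libraries were shallow, with 769655, 1032029 and 539455 reads. Library size only would set CP_7 higher and CC lower against the other groups, so the order of groups can change with the scaling. Several miRNAs that were lower in CC than in CP_14 also stood lower in CP_0 than in the induced cells. MiR-210 stood at 4.13 to 7.40 RPM in CC and at 13.5 to 16.3 in CP_0, against 68.2 to 90.3 in CP_7 and 96.6 to 108 in CP_14. MiR-1246 stood at 1.39 to 2.41 RPM in CC and at 4.50 to 4.71 in CP_0, against 220 to 367 in CP_7 and 515 to 643 in CP_14. MiR-184 stood at 16.9 to 19.3 RPM in CC and at 118 to 127 in CP_0, against 135 to 182 in CP_7 and 751 to 780 in CP_14. For these 3 no groups overlapped, CC was the lowest of the 4 and CP_14 the highest. Scaled by library size only, CC stayed the lowest, but CP_7 was the highest for miR-210 and overlapped CP_14 for miR-1246. MiR-147 and miR-148d were lowest in CP_0 instead, at 9.20 ± 2.47 and 46.5 ± 5.28 RPM (SD, n = 3), against 26.2 ± 2.81 and 93.0 ± 16.5 in CC.

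MiR-2887 and miR-2904 differed from these in that uninduced RMCs held levels near those of CP_14. MiR-2887 stood at 33.4 ± 5.26 RPM in CP_0, 33.5 ± 7.90 in CP_7 and 44.1 ± 4.64 in CP_14, but at 0.386 ± 0.188 in CC (SD, n = 3). The means of miR-2904 were 53.9 RPM in uninduced RMCs, 87.5 at day 7, 47.1 at day 14 and 0.895 in chondrocytes. MiR-143 was also below CP_0 in CC, with 63883 to 78192 RPM in CC, 141808 to 184895 in CP_0 and 216757 to 269253 in CP_14, while CP_7 was the lowest at 42537 to 53586. Scaled by library size only, CC was the lowest group instead.

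Among the miRNAs higher in CC, miR-93, miR-20a and miR-30e-5p stood lower after induction than before it. MiR-93 stood at 412 ± 45.5 RPM in CC (SD, n = 3), at 179 ± 21.5 in CP_0, 75.1 ± 23.0 in CP_7 and 81.9 ± 11.7 in CP_14. MiR-20a stood at 899 ± 99.9 RPM in CC (SD, n = 3), 446 ± 42.6 in CP_0, 211 ± 50.5 in CP_7 and 203 ± 56.4 in CP_14. For both, all CP_0 libraries lay between the CC libraries above and the CP_7 and CP_14 libraries below, and CP_7 and CP_14 overlapped. Scaled by library size only, CP_7 overlapped CP_0 for both and lay above CP_14. The cartilage miRNAs took different courses. MiR-140 stood at 17000 ± 725 RPM in chondrocytes (SD, n = 3), and among RMCs at 10756 ± 417 on day 0, 5100 ± 312 on day 7 and 9818 ± 199 on day 14, with no overlap between the groups. Scaled by library size only, however, all groups of miR-140 overlapped and its day 7 level was not lower. MiR-455-5p stood at 540.3 ± 37.2 RPM in CC (SD, n = 3) but at 228 ± 10.7 in CP_0, 263 ± 38.5 in CP_7 and 228 ± 17.6 in CP_14, the RMC groups overlapping. That scaling made CP_7 the highest group for miR-455-5p. MiR-7 had its highest RMC mean in CP_7, at 750 to 1730 RPM, a range that overlapped those of CP_0 and CP_14 and lay below the 1760 to 2694 of CC. By library size only its CP_7 levels lay above those of CC.

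The arms of miR-199a and miR-27a were set apart likewise. MiR-199a-5p was highest in CC, at 4744 ± 430 RPM (SD, n = 3), and lowest in CP_14, at 1466 ± 208. By library size only, CP_7 was the highest group for this arm. MiR-199a-3p was lowest in CC, at 4753 ± 190 RPM (SD, n = 3), next to CP_0 at 5668 ± 395, and stood at 10493 ± 506 in CP_14 and highest in CP_7, at 11845 ± 1070. MiR-27a-5p stood at 402 to 428 RPM in CC and at 660 to 685 in CP_0, against 66.1 to 78.8 in CP_7 and 197 to 201 in CP_14, so that CC lay between CP_0 and CP_14. MiR-27a-3p stood at 1446 ± 190 RPM in chondrocytes (SD, n = 3) and at 4744 ± 470, 6058 ± 973 and 4625 ± 548 in the RMC groups of days 0, 7 and 14. MiR-221 and miR-181a were both lower in CC than in CP_14, but miR-221 was lowest in CC (955 ± 24.8 RPM, SD, n = 3) and miR-181a in CP_0 (524 ± 24.8), with CC next at 1081 ± 72.4. MiR-100 stood at 37560 ± 1222 RPM in CC (SD, n = 3), 31040 ± 361 in CP_0, 8294 ± 727 in CP_7 and 17406 ± 138 in CP_14, with no overlap between the groups. Scaled by library size only, CP_0 was the highest group for miR-100, and CP_7 and CP_14 overlapped.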

How the data were processed

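Small RNA reads of 12 libraries were processed by the authors, whose notes name CASAVA, bcl2fastq 1.8.4 and Bowtie without a role, and the deposited values are RPM under a header that reads TPM. Whole reads were recovered from every RPM value within 0.01 read, 100% of them, which gave the depth. The limma test was run on log2(TMM-normalized RPM + 1) of the 6 CC and CP_14 libraries, with an intensity trend, after edgeR's filterByExpr (minimum count 10, minimum total 15), with Benjamini-Hochberg adjustment over the 276 tested miRNAs. Fold changes are on this scale, which understates changes of low miRNAs. Arm ratios were tested likewise on log2((5p RPM + 1)/(3p RPM + 1)). Named miRNAs were the 8 largest rises and 8 largest falls among called miRNAs without overlap that averaged 50 reads or more in either group, the 5 most abundant of each group, those the study names, the 4 largest arm changes in each direction, and members of the lists, for long lists the 2 most abundant and the 2 with the largest called changes. Members, lists and rules were chosen with earlier results of these data known. Alternatives were other scalings, filters and pseudocounts, each library left out, a replicate block, all 12 libraries, and edgeR and DESeq2 on the recovered reads. Further fits collapsed names that share their reads or left out sets of names. The software was DESeq2 1.42.0, edgeR 4.0.16 and limma 3.58.1 under R 4.3.3, and the fits were tested on simulated data. The tables give no miRNA sequences, and none was used here.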

Additional observations from a re-analysis of the deposited data

How the results depend on the processing

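The count of 206 called miRNAs was 205 by edgeR (104 higher, 101 lower) and 184 by DESeq2 (85 higher, 99 lower), both on recovered reads, and 98 (42 higher, 56 lower) when at least 2-fold was also asked for, with adjusted or unadjusted p. Leaving out each library in turn gave 183 to 227 calls, 88 to 112 higher and 95 to 115 lower, 10 to 13 arm ratios, and 7 to 11 names found only in CC and 21 to 30 only in CP_14. In all 6 of these fits, 172 miRNAs kept their call and direction. At least 3 reads in each library left 1 name only in CC and 10 only in CP_14. Scaled by library size only, 40 were higher and 163 lower, and with no normalization 172 and 37, and the stricter filter, which tested 201 miRNAs, left 67 lower. Same-number correlations of deviations across miRNAs were -0.23, 0.11 and -0.35, and not every library correlated best with its own number. Deviations from a mean of 3 libraries depend on each other, so these values cannot show whether replicate numbers pair the libraries. With a replicate block 189 were called, all 79 named miRNAs staying on their side of the threshold. By DESeq2 miR-133c and miR-2284x lost the call and miR-222 gained it. All 79 also stayed on their side with edgeR, relative log expression factors, both pseudocounts and no filter. With names that share their reads collapsed, 2 named miRNAs gained a call and 1 lost it, and the median was 0.17. Without the 7 names picked out by CP_0 replicate 3, 1 named miRNA gained a call. Fitted on all 12 libraries, 159 of 284 were called (86 higher, 73 lower), and 10 named miRNAs lost their call, namely miR-92a, miR-363, miR-451, miR-486, miR-34c, miR-182, miR-142-5p, miR-206, miR-126-3p and miR-9-5p. Among the named miRNAs the sign changed with library size only for miR-455-3p (-0.51), miR-145 (-0.50), let-7i (-0.53), miR-148a (-0.18), miR-27b (-0.26), miR-92a (-0.39), miR-214 (-0.60), miR-3120 (-0.17), let-7f (-0.0146), miR-26a (-0.00899) and miR-2284x (-0.46). Other list members changed sign as well. With no normalization it changed for the named miR-199b (0.56), miR-26b (0.18), miR-29a (0.72), miR-222 (0.73), miR-411a (0.32), miR-451 (0.0345), miR-486 (0.0594), miR-34c (0.00335), miR-182 (0.0216), miR-1 (0.43), miR-126-3p (0.51), miR-200a (0.0306) and miR-9-5p (0.11), and without miR-21-5p in the totals for miR-29a (0.14) and miR-222 (0.15). These changes follow from how each scaling moves all miRNAs. The CP_14 depth limits what can be said of names only in CC, and the libraries may share animals or cultures.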

Other observations

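Of 93 ruminant names (miR-2284, miR-2285 and others numbered near them), 81 had a read and 17 were tested, of which 6 were higher in CC, 7 lower and 4 not called, with 1 higher and 5 lower under all 5 scalings. Their median was 0.09, equal to that over all tested miRNAs, of which 74.6% were called. MiR-2285l had 437, 415 and 499 reads in CC and 585, 667 and 829 in CP_14 (log2 fold change -1.52, limma adjusted p = 4.04e-07). MiR-2285bp was lower at -1.99 (limma adjusted p = 1.29e-05) and miR-2285bc higher at 1.77 (limma adjusted p = 6.65e-05), so members of this group moved both ways. MiR-2284x, the most abundant, was higher at 0.25 with TMM (limma adjusted p = 0.00738) and lower at -0.46 with library size only. Of the 70 predicted names, 66 had a read and 13 were tested, with 5 higher, 6 lower and 2 not called (median 0.47), and 3 higher and 6 lower under all 5 scalings, where 37.7% of all tested miRNAs were higher and 37% lower with TMM. Novel_37, the most abundant of them in CP_14, had 175, 189 and 160 reads in CC and 221, 244 and 320 in CP_14 (log2 fold change -1.46, limma adjusted p = 7.4e-06), and novel_64, the most abundant in CC, was higher at 0.86 (limma adjusted p = 0.00247). MiR-3533, chosen after its values were seen, had 3 reads in all CC libraries together and 59 in CP_14, a ratio of CP_14 to CC of 37.3 after normalization (95% exact interval 12.1 to 186, counting error only).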
